A study of Danio rerio with 8 samples.

Results

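The comparison was between liver RNA of zebrafish (Danio rerio) labelled 5 µM cadmium at day 28 and liver RNA labelled 0 µM cadmium at the same day. Each dose was represented by 2 RNA samples that the design calls biological replicates, here 5 µM replicates 1 and 2 and 0 µM replicates 1 and 2. They were 4 of the 7 RNA samples in the series. The 3 arrays used were those of the 8 Agilent 2-colour arrays that carried a 5 µM and a 0 µM RNA of day 28 together. The other samples were 1 µM cadmium at day 28 (2 RNA samples) and 0 µM at day 4 (1 RNA sample). The sources used here do not give how many fish went into each RNA, their strain, sex and age, or the route of exposure. The tissue of all samples is labelled liver and the material is total RNA.

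Cadmium is a non-essential metal that builds up in liver and kidney. It enters cells through transporters of zinc, iron and calcium, binds to thiol groups of glutathione and proteins, and in many animals induces metallothioneins, small cysteine-rich proteins that bind it. The liver also burns fatty acids in mitochondria, makes plasma proteins, and in egg-laying females produces yolk precursors under the control of oestrogen.

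The first array compared 5 µM replicate 1 with 0 µM replicate 1. The second compared 5 µM replicate 2 with 0 µM replicate 2, with the dyes the other way round, and shares no RNA with the first. The third compared 5 µM replicate 1 with 0 µM replicate 2, so it shares an RNA with each of the others. Its dyes were placed as on the first. Values below are given in this order, as log2 ratios of 5 over 0 µM, so that 1 is a 2-fold difference and positive values are higher at 5 µM. These directions hold if the deposited ratios are log2 red over green, as the titles make likely without stating it, and every sign would turn if they were green over red. The third array had the widest ratios, with an SD of 0.41 against 0.30 and 0.23 on the others. For a gene with several probes the values are means over its probes. The difference of the dose means equals the mean of the first 2 arrays, in which a constant dye effect cancels. Its standard error (SE) comes from how far the third array departs from each of the first 2. Error of the hybridisations and spread between RNA samples cannot be told apart in this SE. The number of RNA samples was n = 2 per dose throughout.

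No probe passed the test on the RNA samples. Of 43603 probes, 0 (0.0%) reached an adjusted p under 0.05 by limma with Benjamini-Hochberg adjustment, and the smallest adjusted p was 1. At an unadjusted p under 0.05 there were 973 probes, or 2.23%, a share smaller than the threshold of 0.05 itself. With all 8 arrays taken as independent limma called 6 probes (0.0138%), 2 higher and 4 lower, a setting in which arrays that share an RNA count as replicates. The genes described below are therefore given by their values and by the agreement of the arrays, and none of them is called changed.

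Few probes had large ratios on both arrays that share no RNA, and most of those few had the same direction on both. On the first array 820 probes differed by at least 2-fold, and on the second 467. On either array 1171 probes did so but on both only 116, of which 44 were higher at 5 µM on both and 51 lower on both. These 95 were 81.9% of the 116. The remaining 21 went opposite ways, and 17 of them were brighter in red on both arrays whichever RNA was red. Over all 43603 probes the ratios of these arrays had a Pearson correlation of 0.27 and a Spearman correlation of 0.16, over probes that share the 2 hybridisations and are not independent. A 2-fold difference in the same direction on all 3 arrays was found for 43 higher probes (0.0986%) and 31 lower probes (0.0711%).

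**Figure D1:**
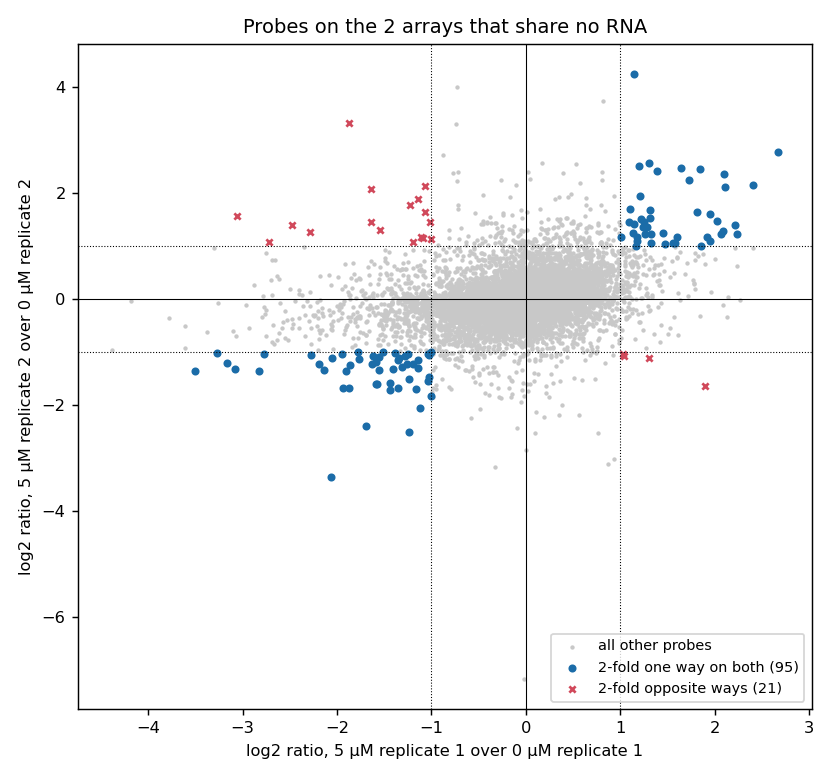
Each point is a probe, with its log2 ratio of 5 over 0 µM for the replicate 1 pair on the x axis and for the replicate 2 pair on the y axis; dotted lines mark 2-fold. Blue points (95) were at least 2-fold the same way on both arrays and red crosses (21) opposite ways.

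The 2 probes for metallothioneins had small differences between the doses. The probe of the older symbol mt, taken here as mt2, had log2 ratios of -0.04, -0.04 and -0.06. Its difference was -0.04 (SE 0.05), so the dose difference was smaller than its SE. The 5 µM levels of mt, at -0.03 and -0.01, were both slightly below the 0 µM levels, at 0.01 and 0.03. The related mtbl had ratios of -0.18, 0.01 and -0.08. Ratios carry no level, so it cannot be said whether these spots were bright or close to background.

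The other metal genes had small differences in the median, with exceptions. Of 31 genes listed for metal binding and transport 27 were measured, with a median difference of -0.03 against -0.01 for all 15548 genes. Higher on all 3 arrays were 8 of the 27, and lower on all 3 were 6. For all genes these shares were 16.3% higher and 21.5% lower, so the metal genes were at 29.6% and 22.2%. The members that were higher included slc39a7 (0.30, 0.56 and 0.45), a zinc transporter of the secretory pathway, and slc11a2 (0.54, 0.27 and 0.53), the divalent metal transporter that can carry iron and cadmium. Their differences were 0.43 (SE 0.09) and 0.40 (SE 0.11). The metal-responsive transcription factor gene mtf1 had ratios of 0.64, 0.17 and 0.90, and its levels at the doses overlapped. The widest ratios belonged to hamp, which encodes the iron hormone hepcidin, with -1.76, -0.27 and 1.39, and to cp, which encodes ceruloplasmin, with -2.72, 1.07 and -0.47. Both turned sign between arrays, so they give no direction for dose. Whether replicates or hybridisations differed cannot be told from these ratios. The iron exporter gene slc40a1 was lower on the arrays of equal replicate number (-0.59 and -0.85) but not on the third (0.05). Its probe with the widest ratios had -1.94, -1.67 and -0.25, while its others had differences of -0.09 and -0.26.

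**Figure D2:**
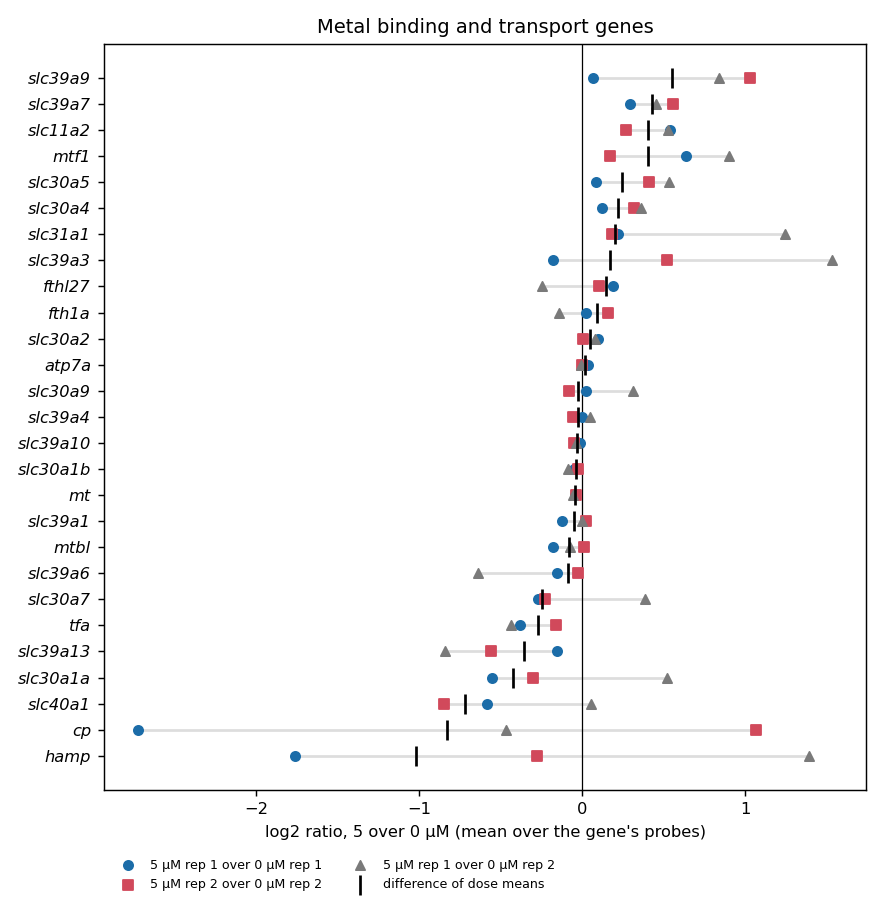
The x axis is the log2 ratio of 5 over 0 µM for the 27 measured genes of metal binding and transport, with one symbol per array and a bar at the difference of the dose means. The metallothionein genes mt and mtbl lie near 0, and hamp and cp spread to both sides.

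Of 45 genes listed for glutathione and oxidative stress 40 were measured, with a median difference of -0.04. On all 3 arrays 8 (20.0%) were higher and 10 (25.0%) lower, near the shares of all genes (16.3% and 21.5%). The gene of catalase, cat, which breaks down hydrogen peroxide in peroxisomes, had ratios of 0.99, 1.45 and 1.13, and its difference of 1.22 (SE 0.14) corresponds to 2.32-fold. Both 5 µM samples lay above both 0 µM samples, as for 10.6% of all genes, while 12.4% had both below. The glutathione transferase gene gstr had 0.83, 0.84 and 0.75 as means of 2 probes, which were less even one by one (1.14, 0.44 and 0.94, and 0.51, 1.24 and 0.56). The microsomal transferase gene mgst1.2 had 1.14, 1.25 and 2.28, and its difference of 1.19 was 0.62 without 0 µM replicate 2 and 0.68 without 5 µM replicate 1. In gpx4b, a glutathione peroxidase that acts on lipid hydroperoxides, the ratios were 0.37, 0.98 and 0.69.

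Genes known as early responders to oxidative and metal stress showed no such uniform difference. The gene hmox1a, for haem oxygenase, had ratios of -0.23, -0.21 and 0.37 over its 2 probes, and its difference of -0.22 was smaller than its SE of 0.33. It turned to 0.08 and 0.07 without 0 µM replicate 1 or without 5 µM replicate 2. Its paralogue hmox1b was lower throughout, with -0.87, -0.56 and -0.97. The genes of glutathione synthesis, gclc and gclm, had differences of -0.14 and 0.06. The peroxiredoxin gene prdx6 had -2.09, -0.20 and 0.04, so the first array alone made its mean of -1.14. For gpx4a the second array carried the mean, with -0.24, 2.55 and 1.21.

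Chaperone genes were split. Of 37 listed 35 were measured, 9 (25.7%) higher and 13 (37.1%) lower on all 3 arrays, beside 16.3% and 21.5% of all genes, with a median difference of -0.03. The inducible heat shock gene hsp70l had ratios of -0.18, -0.08 and -0.44 and a difference of -0.13 (SE 0.18). It changed sign to 0.01 without 0 µM replicate 2 and to 0.06 without 5 µM replicate 1, so no direction can be given. The mitochondrial co-chaperonin gene hspe1 was lower at -0.90, -1.03 and -0.51, and the heat shock factor gene hsf2 at -0.81, -0.69 and -1.15. The stress transcription factor gene atf3 was lower as well, at -0.64, -0.39 and -0.49. In hspa4b, an Hsp110-type chaperone gene, the ratios of -2.19, -0.75 and -0.59 kept one sign but differed widely, and its difference of -1.47 was -0.67 without 0 µM replicate 1 and -2.27 without 0 µM replicate 2. Only 1 of the 35, hspa4b, had a difference of at least 2-fold, against 0.534% of all genes that were lower by that much and 0.264% that were higher.

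Genes of fatty acid use were higher at 5 µM by count. The gene cpt1b encodes 1 isoform of carnitine palmitoyltransferase, the enzyme that commits fatty acids to mitochondrial import. Its ratios were 1.44, 2.18 and 2.75 over 4 probes. Both 5 µM samples were above both 0 µM samples, and the difference of 1.81 (SE 0.56) corresponds to 3.51-fold. Its 4 probes were all higher on all 3 arrays, and 3 of them were at least 2-fold higher on each. The fourth had 0.15 on the first array. The other isoforms on the array, cpt1aa and cpt1ab, had differences of only 0.08 and 0.11, so the large difference was that of cpt1b alone among them.

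Some enzymes that follow cpt1b in the pathway were higher on all 3 arrays, and others were not. The very long chain acyl-CoA dehydrogenase gene acadvl had nearly equal ratios of 1.24, 1.35 and 1.33, a difference of 1.30 (SE 0.06) or 2.46-fold. Its long chain relative acadl had 1.17, 0.72 and 1.2. The thiolase gene acaa2 had 0.50, 1.44 and 1.62. The gene etfdh, which passes electrons from these dehydrogenases to the respiratory chain, had 0.51, 1.19 and 1.37. In all of these both 5 µM samples lay above both 0 µM samples. The acyl-CoA synthetase gene acsl1b (1.31, 0.80 and 1.63), the peroxisomal carnitine octanoyltransferase gene crot (1.2, 0.42 and 1.00) and the ketone body transferase gene oxct1b (1.15, 1.41 and 2.07) were higher too. The medium chain dehydrogenase gene acadm turned sign, with -1.45, 0.89 and 0.92 and a difference of -0.28. The genes decr1 and decr2, for reductases that handle unsaturated fatty acids, had differences of -0.03 and -0.17.

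In a list of 37 fatty acid oxidation genes drawn up after values had been seen, 34 were measured. Of these 20 (58.8%) were higher on all 3 arrays and 1 was lower, beside 16.3% and 21.5% of all genes. The 1 lower gene was acadsb, with -0.72, -0.17 and -0.11. The median difference was 0.26, with medians of 0.22, 0.41 and 0.89 on the 3 arrays. It was 0.64 without 0 µM replicate 1, 0.43 without 5 µM replicate 2, 0.16 without 5 µM replicate 1 and 0.14 without 0 µM replicate 2. In levels from the 3 direct arrays 13 of the 34 genes had both 5 µM samples above both 0 µM samples. Only 1 had both below, beside 10.6% above and 12.4% below of all genes. In levels from all 8 arrays the median was 0.15 in 0 µM replicate 1 and -0.15 in 0 µM replicate 2. It was 0.55 in 5 µM replicate 1 but 0.22 in 5 µM replicate 2, close to 0 µM replicate 1. In the wider list of lipid and cholesterol metabolism 44 of 53 genes were measured, 17 (38.6%) higher and 3 (6.82%) lower on all 3 arrays. Its median of 0.09 was -0.01 without 0 µM replicate 2.

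Other lipid genes included some with even ratios. The fatty acid elongase gene elovl2 had 0.93, 0.84 and 0.97 with an SE of 0.07, and the desaturase gene fads2 had 1.07, 0.38 and 0.61. Both enzymes make long polyunsaturated fatty acids. The gene of lipoprotein lipase, lpla, had 1.18, 0.26 and 1.22 over 4 probes, whose differences ran from 0.05 to 1.27. In the other direction stood fabp6, the bile acid binding protein gene, with -2.22, -0.90 and -3.17 over 2 probes. Its difference of -1.56 had an SE of 0.96, and its dose levels overlapped on these arrays. Its probe with the wider difference, -2.20, had -1.03 without 5 µM replicate 1 and -3.38 without 5 µM replicate 2. The apolipoprotein gene apoa1a was lower mainly on the second array (-0.14, -1.79 and -0.48).

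Transcripts encoded by mitochondrial DNA were higher on every array. Of 13 such genes listed after values had been seen 6 had probes, and all 6 were higher on all 3 arrays, beside 16.3% of all genes. Subunits of complex I made up 5 of them. ND1 had ratios of 0.91, 0.93 and 1.09, ND2 0.91, 0.89 and 1.18, ND3 1.00, 1.40 and 1.77, and ND5 1.60, 0.78 and 1.65. ND6 was lower in size, with 0.39, 0.24 and 0.98, and its dose levels overlapped. The complex IV subunit COX1 had 0.55, 0.42 and 0.96. The median difference was 0.91, between 0.75 and 1.02 with an RNA sample left out. These transcripts come from shared precursor RNAs and so are not independent of each other.

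Among the probes with the largest agreement was fkbp5, which encodes a co-chaperone of the glucocorticoid receptor and is induced by glucocorticoids in mammals and fish. Its ratios were 2.22, 1.82 and 2.32, and the difference of 2.02 (SE 0.20) corresponds to 4.05-fold. Both of its probes were at least 2-fold higher on all 3 arrays. The gene tsc22d3, known as GILZ and a glucocorticoid target in mammals, had 1.28, 0.60 and 1.15. A list of 25 glucocorticoid-responsive genes drawn up after seeing these values did not shift in its median. Of 24 measured 8 (33.3%) were higher and 4 (16.7%) lower on all 3 arrays, beside 16.3% and 21.5% of all genes. The median difference was 0.02. The serum and glucocorticoid kinase gene sgk1 had 0.34, 0.25 and 1.04 with overlapping dose levels, and igfbp1b, an insulin-like growth factor binding protein gene, was lower mainly on the second array (-0.04, -1.71 and -0.42).

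The gene tefa encodes a PAR bZIP transcription factor of the circadian output, and had -0.87, -0.82 and -1.04 over 3 probes that were all lower on all 3 arrays, with differences from -0.34 to -1.51. The period gene per1b, a repressor within the clock, had -0.46, -0.91 and -0.77, from 1 probe at -1.01, -1.84 and -1.54 and another with a difference of 0.05. The cryptochrome gene cry3a had 0.43, 0.59 and 0.56, the mean of 1 probe at 0.87, 1.12 and 1.11 and another near 0 (difference 0.03). The repressor gene bhlhe40 had -0.82, -1.66 and -0.13, and nfil3-5 had 0.39, 1.33 and 1.63. Of 36 clock genes listed after values had been seen 32 were measured. Higher on all 3 arrays were 6 and lower were 15, or 46.9% beside 21.5% of all genes, with a median difference of -0.01. The sources used here do not give the time of day at which livers were taken.

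Of 35 genes listed for drug and xenobiotic metabolism 29 were measured. On all 3 arrays 10 (34.5%) were higher and 1 (3.45%) lower, beside 16.3% and 21.5% of all genes, while the median difference was only 0.03. The examples come from the fish cytochrome P450 2 families, whose substrates are only partly known. The gene cyp2k6 had 2.21, 0.97 and 2.5 with a difference of 1.59 (SE 0.61), which was 0.82 without 5 µM replicate 1. The gene cyp2ad2 had 0.66, 1.12 and 0.72, cyp2k19 0.84, 0.44 and 1.05, and cyp2p6 0.72, 0.40 and 0.46. The glucuronosyltransferase gene ugt1ab had 0.84, 0.68 and 1.27. In all 5 both 5 µM samples were above both 0 µM samples. For cyp2k18 the 2 probes disagreed, with differences of 1.94 and -0.04. The aryl hydrocarbon receptor target cyp1a had -0.03, 0.45 and 1.08, and the xenobiotic receptor gene nr1i2 a difference of -0.05.

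**Figure D3:**
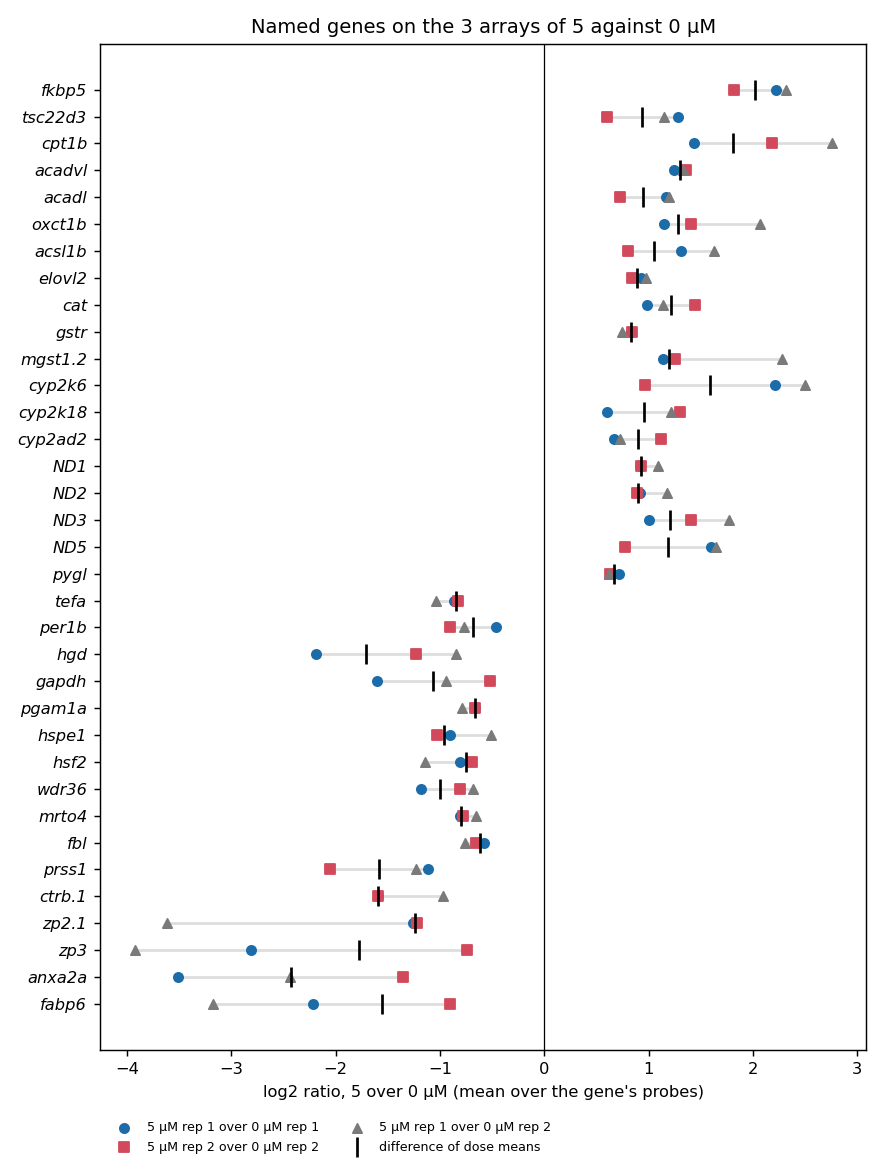
The x axis is the log2 ratio of 5 over 0 µM, as the mean over the probes of each gene, with one symbol per array and a bar at the difference of the dose means. Genes such as acadvl, elovl2, pygl and mrto4 have nearly equal ratios on the 3 arrays, whereas zp2.1, zp3 and fabp6 are lowest on the third.

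Genes of glucose and amino acid metabolism were lower more often than higher. Of 44 listed 40 were measured, 5 higher and 14 lower on all 3 arrays, or 35.0% lower beside 21.5% of all genes. Their median difference was -0.17, and -0.11 and -0.06 without 0 µM replicate 1 or 5 µM replicate 2 and -0.32 without 5 µM replicate 1. The gene hgd, for homogentisate dioxygenase of tyrosine breakdown, had -2.19, -1.23 and -0.85 and a difference of -1.71 (SE 0.55), which was -1.04 without 0 µM replicate 1. The glycolytic gene gapdh had -1.60, -0.52 and -0.94, with probe differences of -1.73 and -0.39, and its paralogue gapdhs had -0.68, -0.47 and -0.47, though its 2 probes differed in sign. Another glycolytic gene, pgam1a, was more even at -0.66, -0.67 and -0.79. The gene mat1a, which makes the methyl donor S-adenosylmethionine, had -0.76, -0.53 and -0.24. Against this direction the liver glycogen phosphorylase gene pygl, which releases glucose from glycogen, had 0.72, 0.63 and 0.62 with a difference of 0.67 (SE 0.07). The glucose-6-phosphatase gene g6pc1a.1 had 0.46, 0.46 and 0.76.

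Genes of ribosome assembly were lower at 5 µM by count. Of 78 nucleolar and ribosome assembly genes listed after values had been seen 68 were measured. Lower on all 3 arrays were 46 (67.6%) and higher were 2, gnl3 and nob1, beside 21.5% and 16.3% of all genes. The median difference was -0.26, with medians of -0.25, -0.22 and -0.42 on the 3 arrays. It lay between -0.37 and -0.08 when an RNA sample was left out, nearest to 0 without 5 µM replicate 1 (-0.08) and without 0 µM replicate 2 (-0.14). In levels from the whole loop of arrays the median was 0.11 in 0 µM replicate 2 and -0.10 in 5 µM replicate 2. It was -0.11 in 0 µM replicate 1 and -0.33 in 5 µM replicate 1. The median levels of the doses thus overlapped, in the sample order of the egg and oocyte transcripts below. This overlap was narrow (-0.0995 in 5 µM replicate 2 against -0.1087 in 0 µM replicate 1), and the loop closed poorly. In levels from the 3 direct arrays 28 of the 68 genes had both 5 µM samples below both 0 µM samples. Only 1 had both above, beside 12.4% below and 10.6% above of all genes. The most even of the named members was mrto4, a factor of the large ribosomal subunit, with -0.81, -0.78 and -0.66. The gene of fibrillarin, fbl, which methylates ribosomal RNA, had -0.58, -0.66 and -0.76, the mean of probes with differences of -1.16 and -0.07. The small subunit factor wdr36 had -1.18, -0.81 and -0.68, and pes, for pescadillo, had -1.27, -0.72 and -0.51. The helicase gene ddx18 had -0.76, -0.76 and -1.52. Nucleolin, ncl, had 2 probes that disagreed in sign, and 1 of them was at least 2-fold lower on all 3 arrays (-1.16, -1.69 and -1.26).

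Transcripts of the egg and the oocyte separated the replicates more than the doses. Zona pellucida genes encode the egg coat and in zebrafish are made in the ovary. All 22 with probes were listed after values had been seen. Beside 21.5% and 16.3% of all genes, 17 (77.3%) of them were lower on all 3 arrays and 0 were higher. Their median ratio was -0.45 and -0.32 on the arrays of equal replicate number but -2.14 on the third array. In levels from the whole loop of arrays the median was highest in 0 µM replicate 2 (0.92), then 5 µM replicate 2 (0.28), and low in 0 µM replicate 1 (-0.92) and 5 µM replicate 1 (-1.22). In levels from the 3 direct arrays the doses overlapped in all but 2 of the 22 genes. The median difference of -0.42 turned to 0.39 without 0 µM replicate 2 and to 0.41 without 5 µM replicate 1, so it gives no direction for dose. In these bulk samples fewer cells of a type and less RNA per cell cannot be told apart.

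Single genes show the same order of samples. The gene zp2.1 had -1.26, -1.22 and -3.62, zp2.5 -1.12, -0.96 and -3.93, and zp3 -2.81, -0.74 and -3.92. The 2 probes of zp3 differed, with -4.39, -0.96 and -3.49 for 1 and -1.24, -0.51 and -4.36 for the other. Only the latter showed this order in loop levels. The former had -0.57 and 0.57 at 0 µM and -2.16 and -1.99 at 5 µM, so its doses did not overlap. The SE of zp2.1 was 1.31 beside a difference of -1.24. Other oocyte transcripts moved with them. Beside 21.5% and 16.3% of all genes, 15 (68.2%) of 22 measured were lower on all 3 arrays and 0 higher. Their medians were -0.41, -0.29 and -1.71. Their median difference of -0.30 turned to 0.36 and 0.39 without the same RNA samples. The maternal factor gene zar1 had -0.75, -0.30 and -2.64, and the linker histone gene h1m -0.63, -0.59 and -3.25. Among the markers of ovary or oocyte 6 of 10 were lower on all 3 arrays and 1 higher, namely nots (1.25, 1.45 and 1.77), an aspartic protease gene named nothepsin that is expressed in liver of female zebrafish. The germ cell gene ddx4 had a difference of 0.04 and a ratio of -0.44 on the third array.

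Cell cycle genes had their large ratios on the third array as well. Of 34 listed 29 were measured, 14 (48.3%) lower and 5 (17.2%) higher on all 3 arrays, beside 21.5% and 16.3% of all genes. The medians of the list were -0.02, -0.04 and -0.84. The replication licensing gene mcm2 had -0.94, -0.50 and -2.76, and the kinase genes plk1 -0.38, -0.62 and -2.11 and aurka -0.33, -0.41 and -2.20. The order of the list's median level over the 4 RNA samples was that of the oocyte transcripts, and plk1 and ccnb1 are in both lists. The median difference of -0.04 turned to 0.28 without 0 µM replicate 2 and 0.25 without 5 µM replicate 1, and was -0.44 and -0.45 without the others. The p53 target ccng1 went the other way at 0.85, 0.22 and 1.07, with overlapping dose levels. Whether oocyte RNA takes part in these cell cycle ratios was not tested.

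Yolk genes gave no common direction. The vitellogenin genes encode yolk precursors made by female liver under oestrogen. The gene vtg3 had 1.24, 0.14 and 1.18, vtg4 0.72, 0.34 and 0.97 from probes that differed in sign, vtg2 1.84, -0.33 and 2.73, and vtg5 -1.07, 1.64 and 1.60. The oestrogen receptor gene esr1 had -0.09, -0.19 and 1.24, and esr2b 1.03, 0.54 and 1.36. In vtg2 and vtg5 the ratio turned sign between the arrays that share no RNA, so they give no direction for dose. Of the 16 measured genes for vitellogenin and egg proteins, 4 were higher and 8 lower on all 3 arrays, beside 16.3% and 21.5% of all genes. Their median difference of -0.18 turned to 0.39 without 0 µM replicate 2 and to 0.26 without 5 µM replicate 1. This list is not made of yolk genes alone, and its lowest difference (-1.78) was that of the egg coat gene zp3.

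**Figure D4:**
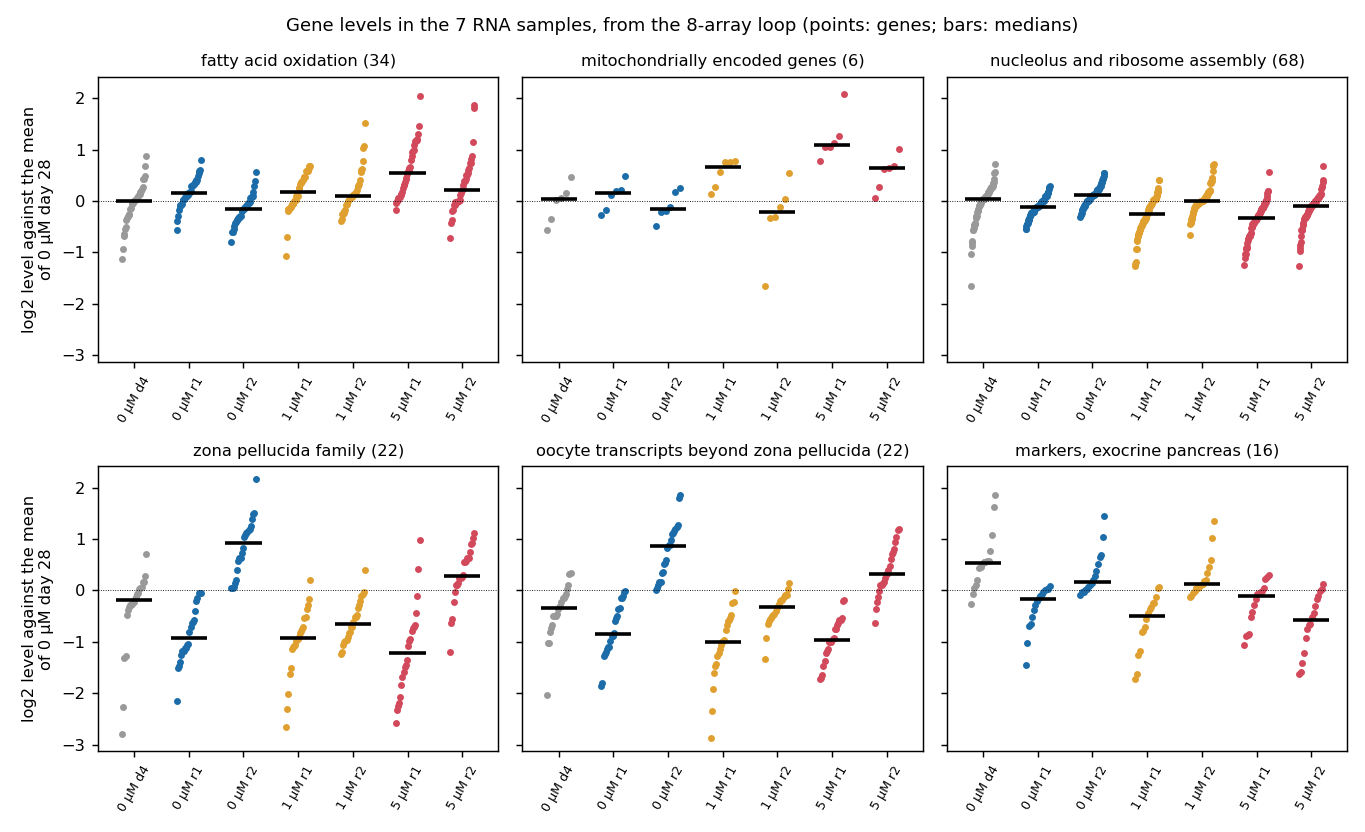
Each point is a gene, with its log2 level in each of the 7 RNA samples relative to the mean of the 0 µM samples of day 28, from all 8 arrays with a dye term; bars are medians, and d4, r1 and r2 mark day 4 and the replicates. Zona pellucida genes have medians of 0.92 and 0.28 in 0 and 5 µM replicate 2 and below 0 in the other samples, and fatty acid oxidation genes have their highest median (0.55) in 5 µM replicate 1.

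Digestive enzymes of the exocrine pancreas, which lies next to the liver and within it in many fish, were lower in part. Of 18 markers 16 were measured, 6 (37.5%) lower on all 3 arrays and 1 (6.25%) higher, beside 21.5% and 16.3% of all genes. The median ratio was 0.04 on the first array, -0.93 on the second and -0.47 on the third. The median difference of -0.48 lay between -0.67 and -0.26 with an RNA sample left out, nearest to 0 without 5 µM replicate 2. Trypsin prss1 had -1.12, -2.06 and -1.23 with a difference of -1.59 (SE 0.33), and chymotrypsinogen ctrb.1 had -1.59, -1.60 and -0.97 with -1.59 (SE 0.35). In both the 5 µM samples were below both 0 µM samples. Other enzymes were lower on the second array but not on the first, such as prss59.2 with 0.19 and -2.22 and ctrl with 0.11 and -2.14. The pancreatic transcription factor gene ptf1a had a difference of 0.07. Hormone genes of the endocrine pancreas had medians of -0.28, -0.88 and 0.20, and 0 of 4 kept one sign.

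Markers of the remaining cell types had small medians. Hepatocyte markers, with 14 of 17 measured, had medians of -0.31, 0.36 and 0.17. Beside 16.3% and 21.5% of all genes, 3 (21.4%) of the 14 were higher and 3 (21.4%) lower on all 3 arrays. Their median difference of 0.04 ranged from -0.29 to 0.33 with an RNA sample left out. Red cell markers had a median difference of -0.02 over 6 genes, with the haemoglobin gene hbaa2 at -0.36, -0.28 and -0.05. The medians were -0.05 for 8 immune cell markers, -0.02 for 12 muscle markers, -0.03 for 6 intestinal and -0.13 for 6 bile duct markers. In each of the last 4 lists at most 3 genes were higher and 2 lower on all 3 arrays. Because the values are ratios, whether liver markers were high in these samples could not be checked.

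Acute phase and immune genes were split. Of 43 listed 32 were measured, 6 (18.75%) higher and 6 (18.75%) lower on all 3 arrays, near the shares of all genes (16.3% and 21.5%). The median difference was -0.05. The fibrinogen gene fgg, part of the clotting system made by hepatocytes, had 0.25, 1.78 and 0.70, a difference of 1.02 (SE 0.46) that was 0.48 without 5 µM replicate 2 and 1.56 without 5 µM replicate 1. The complement gene c8b had 0.33, 0.91 and 0.99. Lower were the matrix metalloprotease gene mmp9 (-0.45, -0.81 and -0.50), the interferon regulatory factor gene irf1b (-0.34, -0.88 and -0.97) and the acute phase gene saa (-0.32, -0.49 and -0.17). The cytokine gene tnfa had -0.83, -0.10 and -0.31.

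**Figure D5:**
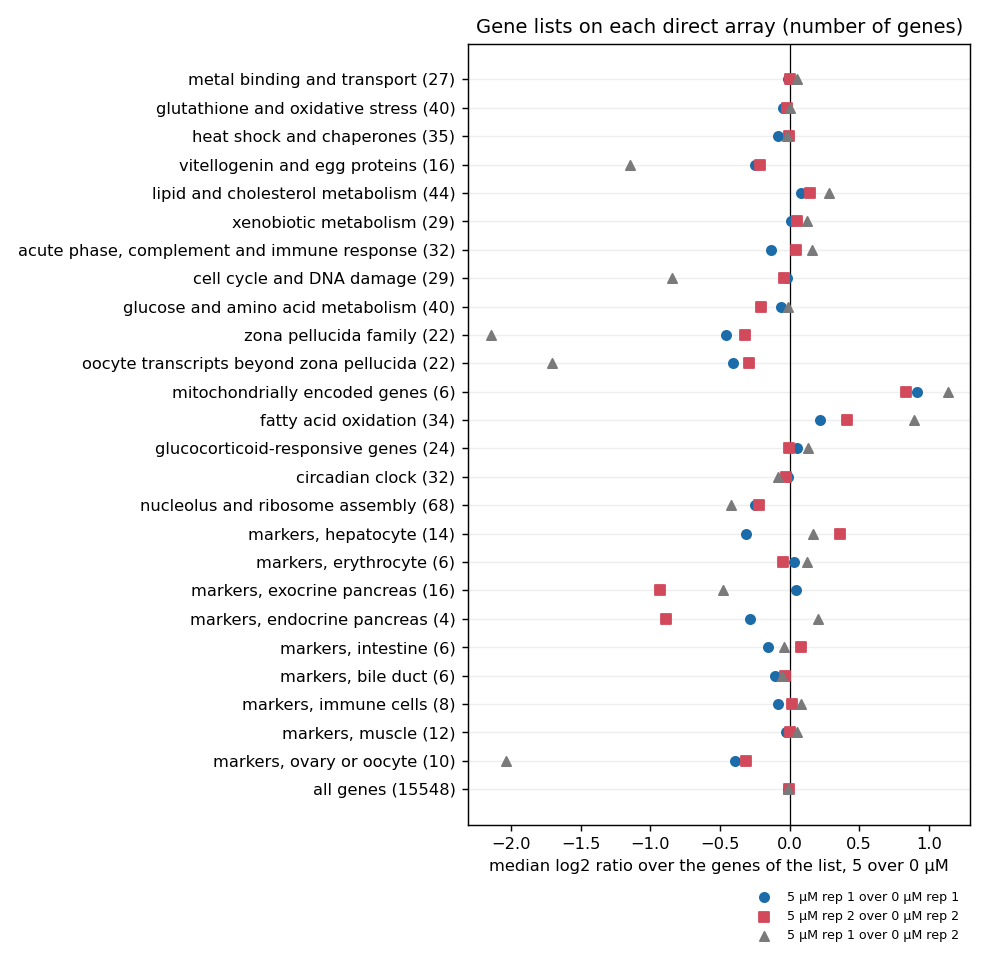
The x axis is the median log2 ratio of 5 over 0 µM over the genes of each list, with one symbol per array and the number of measured genes in brackets. Mitochondrially encoded genes (0.91, 0.83 and 1.13) and fatty acid oxidation genes (0.22, 0.41 and 0.89) lie above 0 on all 3 arrays, and the egg, oocyte and cell cycle lists lie far below 0 on the third.

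The 74 probes that were at least 2-fold the same way on all 3 arrays held many without a gene name. Of the 43 higher probes 27 were paired with a gene, 24 genes in all, and of the 31 lower probes 23 with 22 genes. The smallest ratio in size was 1.00 among the higher and among the lower probes, and the nearest probes outside had 0.999 and 0.992. The highest minimum belonged to the unnamed probe A_15_P345640, with 2.68, 2.78 and 3.79. The unnamed A_15_P100969 had 2.11, 2.36 and 2.39, with a difference of 2.23 (SE 0.12). Among lower probes A_15_P177666 had -2.06, -3.35 and -1.69, and A_15_P181626 had -1.69, -2.39 and -2.28. The named gene anxa2a, for a calcium-dependent membrane binding annexin, had -3.51, -1.36 and -2.43. The lower probes also held egg coat genes with their lowest ratio on the third array. Examples are zp2.1 (-1.26, -1.22 and -3.62) and zp3f.1 (-1.02, -1.48 and -3.06). The third array exceeded the difference in size by a median of 1.16 in the lower and 0.48 in the higher probes.

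Other probes of the same genes give a check within the arrays. The 24 genes with a higher probe had 10 further probes, of which 7 (70.0%) were higher on all 3 arrays and 0 were lower on all 3. The 22 genes with a lower probe had 18 further probes, of which 12 (66.7%) were lower on all 3 and 1 was higher. The sizes were often small, with a difference under 0.5 on the log2 scale in size for 5 of the 10 and 8 of the 18, and one of at least 1.5-fold in the same direction for 3 and 9. Of all probes 15.9% were higher and 16.7% lower on all 3 arrays, together 32.6%. Disagreement remained in single genes. The reductase gene dhrs4 had 1 probe at 1.95, 1.60 and 1.79 and others with differences of 0.16 and -0.04. The arginine methyltransferase gene prmt1 had differences of -2.09, -0.60 and -0.14 over its 3 probes.

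Levels of these probes at 1 µM and at day 4 came from the loop of 8 arrays and are given relative to the mean of the 0 µM samples of day 28. The medians of the 43 higher probes were 0.77 at 1 µM, 1.61 at 5 µM and 0.49 at day 4. Those of the 31 lower probes were -1.03, -1.33 and -0.82. In these loop levels both 5 µM samples lay above both 0 µM samples of day 28 in 42 of the 43 higher probes. Both lay below in only 15 of the 31 lower probes, and in the rest of these the doses overlapped. The probes were chosen for their values at 5 µM on arrays that also enter the loop, so nothing is read from the other samples lying nearer to 0. These levels share the 0 µM reference with the dose difference, and the loop closed poorly. The ratios on an array correlated over probes with those predicted from the other 7 arrays at -0.32 to 0.19 for 7 of the 8 arrays, among them the first 2 direct arrays with 0.01 and 0.18. The third direct array alone was higher, at 0.74. Levels at 1 µM and day 4 are therefore uncertain and are given as a description. The limit also bears on the dose differences given above. They are means of the first 2 direct arrays, whose ratios the other 7 arrays predicted poorly.

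In these levels some genes had both 5 µM samples apart from all other samples, which their choice by values at 5 µM favours. This also held for 27 of the 43 higher probes and 5 of the 31 lower probes. It is therefore given as a description and not as a trait of 5 µM. For fkbp5 the levels were 2.33 and 1.41 in the 5 µM samples, -0.52 and -0.80 in the 1 µM samples and -0.89 at day 4. For cpt1b they were 2.04 and 1.86 at 5 µM, -0.69 and 0.14 at 1 µM and 0.13 at day 4. Its probes differed at day 4, where 1 was at 1.55, beside 1.85 and 2.98 at 5 µM. The others were between -0.48 and -0.28 at day 4. The doses were closer together in acadvl, with 1.30 and 1.80 at 5 µM, 0.65 and 1.03 at 1 µM and 0.49 at day 4. In elovl2 the 1 µM samples, at 0.99 and 1.15, were above those of 5 µM, at 0.96 and 0.85. For hgd the day 4 sample of 0 µM, at -2.12, was as low as the 5 µM samples at -1.25 and -1.93. So for hgd the level at 5 µM was within the range of 0 µM samples once day 4 is included. The gene gapdh had -1.48 at day 4 and -0.17 and -1.01 at 5 µM. Its 5 µM replicate 1 already lay between the 0 µM samples of day 28, at -0.48 and 0.48.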

How the data were processed

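The values deposited by the authors were 1 log ratio per probe for each of 8 arrays, 43603 probes with 0 missing, taken here as log2 red over green. The authors made these log2 values with limma, per the submitters' processing notes, which name no version; their background correction and normalization are not stated in the labels. Array medians lay between -0.0020 and 0.0024. No spot intensities were used, so dim probes could not be filtered, and the number of arrays limits the precision. Of the probes 23717 had 1 gene symbol in the platform annotation, 0 had several and 19886 had none, and 23534 were matched to current symbols by Entrez ID and 42 by accession, which updated 21.

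The signs of the first and the third array were turned to 5 over 0 µM. The 3 arrays link the 4 RNA samples in a chain, which gives their 4 levels. limma 3.58.1 in R 4.3.3 (lmFit, eBayes) compared the doses on these levels with 2 residual degrees of freedom, by two-sided tests adjusted over all probes (Benjamini-Hochberg). The SE of genes came from the same fit on means over probes. Levels at 1 µM and day 4 came from least squares over 8 arrays with a dye term. The fit was tested on simulated data.

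Probes were named by 4 parts of a rule, namely those past the threshold (0), the 12 in each direction with the largest smallest ratio over the 3 arrays, list members of at least 2-fold whose RNA sample levels do not overlap between doses, and mt2, hmox1a and hsp70l. At most 2 unnamed IDs per direction are printed. Further members with small SE or of known role were chosen after their values were seen. All members and lists were chosen with earlier results of these data known. Promoter motifs were not analysed here. Alternatives were other levels and models, a replicate block, centring, scaling, other thresholds and fold sizes, 1 probe per gene, and each RNA sample left out.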

Additional observations from a re-analysis of the deposited data

How the results depend on the processing

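The count of calls was 0 under every alternative (loop levels, all 7 RNA samples in 1 model, 3 arrays as independent with or without a dye term, centring, scaling, the probes that varied more on the other 5 arrays, robust eBayes, genes, adjusted p under 0.01 or 0.10), except with 8 arrays as independent, where it was 6. It was 0 to 0 with an RNA sample left out. With the replicate block it was 0. The labels give a shared number and no shared source. Over probes, the difference of replicate 1 from replicate 2 at 0 µM was correlated with that at 5 µM. The correlation was 0.62 where the levels share an array but -0.13 over the other 5 arrays. The count of 95 probes that were 2-fold the same way on the first 2 arrays was 492 at 1.5-fold, 14 at 3-fold, 208 with arrays scaled to one spread and 148 with the dye term of the loop subtracted. Those 148 were 45 higher and 103 lower, whereas the 95 were 44 higher and 51 lower. On the replicate arrays alone the count was 820 and 467. Single values kept their sign in 308 of 312 alternatives. The exceptions were hmox1a (0.0816 without 0 µM replicate 1, 0.0711 without 5 µM replicate 2, and down to -0.51 otherwise) and hsp70l (0.0070 without 0 µM replicate 2, 0.0569 without 5 µM replicate 1, and down to -0.31 otherwise). Leaving out 1 RNA sample moved 16 of the 39 named values by more than 1.5 times, among them A_15_P350330 from -1.37 to -0.02, zgc:173770 from -1.51 to -0.34 (both without 0 µM replicate 2) and zp3a.2 from -1.47 to -0.35 (without 5 µM replicate 1). Of 156 list medians under alternatives 72 moved by more than the spread between replicates. With 2 samples per dose, a p that misses the threshold does not show that levels were equal. The causes of these shifts were not tested.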

Other observations

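Several genes outside the lists had probes at least 2-fold the same way on all 3 arrays, and they are named here after their values were seen. The uncoupling protein gene ucp1, whose product lets protons leak into mitochondria, had -1.17, -1.26 and -1.07 over 2 probes, and its difference of -1.21 had an SE of 0.10. Its levels in the 1 µM samples were also low, at -1.26 and -1.01. The alcohol dehydrogenase gene adh8a had -2.06, -1.11 and -1.26. Its dose levels overlapped in the loop of 8 arrays, with -1.20 and -0.40 at 5 µM and -0.95 and 0.95 at 0 µM. Lower too was the spindle protein gene tacc3, by 1 probe (-1.59, -1.18 and -1.71), while its other probe had a difference of -0.04.

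In the other direction the cytosolic lipid binding genes rbp2a, for a retinol binding protein, and fabp7a, for a fatty acid binding protein, had 0.98, 0.90 and 0.66 and 1.2, 2.52 and 2.82. The 2 probes of rbp2a had differences of 1.73 and 0.15. The myoglobin gene mb, an oxygen binding protein of muscle, had 0.81, 1.27 and 1.06 over 2 probes. The 12 muscle markers had a median difference of -0.02. The myosin light chain genes myl7 and cmlc1 are not among these markers. Their ratios were -0.01, 1.68 and 2.33 for myl7 and -0.07, 1.85 and 2.52 for cmlc1. Whether muscle RNA takes part in these ratios was not tested. The amylase-like gene amy2al1 was higher at 1.33, 1.06 and 1.17 with an SE of 0.09, whereas amy2a, a marker of exocrine pancreas, was lower at -0.45, -1.31 and -0.99. The microtubule-associated gene map7d1b had nearly equal ratios of 1.26, 1.22 and 1.26. The secreted cerebellin-like genes cbln10 and cbln13 were higher as well, cbln10 with 1.14, 4.24 and 4.52 and cbln13 with 1.58, 1.06 and 1.92.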
